A study of Homo sapiens with 2 samples.

Results

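The 10 genes described here are stress-induced genes grouped as inhibitors of the kinase complex mTORC1 and the constitutive parts of the same pathway. They were chosen by symbol from the array annotation out of 18417 genes with a probe set of their own. The choice was made with results of these 2 samples already known, so the values below describe the genes and test nothing. The group called inducible inhibitors holds DDIT4 (probe set 7928308), DDIT4L (8101952), SESN1 (8128698), SESN2 (7899436), SESN3 (7951077) and NIBAN1 (7922846). NIBAN1 is counted in it as a stress-induced gene, and whether it inhibits mTORC1 was not tested. TSC1 (8164781) and TSC2 (7992474) form the core of the TSC complex, and MTOR (7912412) and RPTOR (8010512) are subunits of mTORC1. Each gene had 1 probe set, annotated to it alone, and all 10 reached a log2 value of 6 in at least 1 sample, the floor below which genes were not compared.

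RNA came from K562, a human cell line grown from a chronic myeloid leukaemia, which has the BCR-ABL fusion kinase and no functional p53. Both cultures carried an inducible hairpin against BMI1, a subunit of a Polycomb repressive complex. One was incubated with doxycycline for 96 h, and the control was incubated with none. Each group held 1 culture on 1 array, and both RNAs had an integrity number of 10. The number of cultures given doxycycline without the hairpin was 0, so the drug, the hairpin and any other difference between the 2 cultures cannot be told apart. With 1 sample per group, no value below has a replicate error and no p-value was computed. All levels are log2 RMA values, and all differences are log2 values with doxycycline minus control. Levels of different probe sets were not set against each other, because probes differ in brightness.

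mTORC1 is a protein kinase complex that drives protein and lipid synthesis and holds back autophagy when amino acids, growth factors and energy are plentiful. Growth factor signals reach it through the TSC complex, which keeps the small GTPase RHEB inactive. Amino acid signals reach it through the Rag GTPases on the lysosome, which GATOR1 opposes and GATOR2 favours. DDIT4, DDIT4L and the sestrins act on these arms. DDIT4 (also called REDD1) and its paralogue DDIT4L act through the TSC complex. The sestrins bind GATOR2, SESN2 being known as a leucine sensor, and NIBAN1 is a stress-induced cytosolic protein that affects translation and S6 kinase signalling. DDIT4, SESN2 and NIBAN1 are known targets of the stress transcription factor ATF4. SESN1 is known as a target of p53 and SESN3 as a target of FOXO factors, and DDIT4 is also induced by hypoxia and by glucocorticoids.

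The stretches of DNA before the starts of these genes are shown because most of the inhibitors were higher together with doxycycline while DDIT4L was not. All 10 genes matched RefSeq promoter windows on GRCh38.p14, with 13 windows in all, since SESN1 and TSC2 had more than 1 start. The 250 bases before each start were searched on both strands for 6 motifs. These were the ATF4 composite element TGATGNAA, the FOXO element GTAAACA, the hypoxia response core ACGTG, the E-box CACGTG, which contains that core, the antioxidant response element TGACNNNGC and the TATA box TATAAA. DDIT4 and NIBAN1 had the highest differences of the members. DDIT4L, the paralogue of DDIT4, had a small difference of opposite sign close to the floor. The sequences of these genes run 5′ to 3′ on the gene's strand, with any matched letters in capitals. The DDIT4 window lies at chr10:72273674-72273923 on the plus strand, that of NIBAN1 at chr1:184974509-184974758 on the minus strand and that of DDIT4L at chr4:100190469-100190718 on the minus strand.
DDIT4: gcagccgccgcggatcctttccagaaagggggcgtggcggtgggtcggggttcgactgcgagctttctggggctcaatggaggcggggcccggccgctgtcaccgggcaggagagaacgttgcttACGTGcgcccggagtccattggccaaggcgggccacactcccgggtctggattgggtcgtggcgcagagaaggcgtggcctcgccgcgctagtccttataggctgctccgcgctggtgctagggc
NIBAN1: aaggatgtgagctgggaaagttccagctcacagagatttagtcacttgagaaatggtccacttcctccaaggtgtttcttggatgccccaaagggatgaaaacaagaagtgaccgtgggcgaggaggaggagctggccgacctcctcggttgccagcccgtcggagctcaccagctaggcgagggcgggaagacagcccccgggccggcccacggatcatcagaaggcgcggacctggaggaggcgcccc
DDIT4L: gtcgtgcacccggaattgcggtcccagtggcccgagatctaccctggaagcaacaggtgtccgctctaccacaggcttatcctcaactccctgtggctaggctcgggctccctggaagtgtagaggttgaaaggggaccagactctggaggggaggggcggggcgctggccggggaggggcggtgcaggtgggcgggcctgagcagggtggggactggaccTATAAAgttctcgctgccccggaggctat

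The capitals in DDIT4 are the hypoxia response core, 125 to 121 bases before the start, and those in DDIT4L are a TATA box 29 to 24 bases before the start. NIBAN1 held 0 of the 6 motifs, and so did SESN2, SESN3, MTOR and TSC1. RPTOR held the TATA box letters on the opposite strand, 238 to 233 bases before its start, and the antioxidant element occurred in 1 of the SESN1 windows and in TSC2. The shares given next count windows, whereas a gene was counted if any of its windows matched, so the units differ. The ATF4 composite letters occurred in 3.14% of all 35116 windows and in 1 of the 10 genes, TSC2, which barely differed between the samples. In TSC2 they overlap an E-box, which holds the hypoxia core on both strands and in turn overlaps the antioxidant element on the opposite strand. This stretch lies at chr16:2047864-2047893 on the plus strand, 121 to 92 bases before the first start, and its capitals span all of these matches.
TSC2: GCCCCGTCACGTGATGCAAggatcgccggc

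The hypoxia core letters occurred in 18.5% of all windows, and among the members in DDIT4 and TSC2. The FOXO letters occurred in 2.98% of all windows and in 0 of the 10 genes. The shares for the other motifs were 6.34% for the E-box, 10.9% for the antioxidant element and 10.7% for the TATA box. A match describes the letters in these windows alone, and elements farther from the start were not examined here.

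The targeted transcript was checked first. BMI1 shares its probe set with the COMMD3-BMI1 read-through transcript, and the value was 10.00 with doxycycline and 10.84 in the control, a difference of -0.84, so 55.9% of the control signal remained. The sample labelled doxycycline was thus the one with the lower BMI1 signal. Across the 13471 genes past the floor, the median difference was 0.00177 and the robust SD of the differences was 0.15. That SD, a scaled median absolute deviation, describes the spread between genes and not between cultures. Markers of the labelled cell type were present, with 11 of 11 measured erythroid and leukaemia genes past the floor, and HBE1, the embryonic epsilon globin gene, at 13.03 with doxycycline and 13.34 in the control. These 11 were all lower with doxycycline, with a median difference of -0.18. Their part in the results below was not tested, and in bulk RNA fewer cells of a type and less RNA per cell cannot be told apart. Markers of other cell types had similar summed linear signals in the 2 samples, at 727 with doxycycline and 737 in the control for T and NK cells, 328 and 358 for B cells, 1068 and 1017 for monocytes and granulocytes, and 709 and 701 for fibroblasts. Some markers of other types passed the floor, 3 of 10 measured for T and NK cells, 3 of 5 for B cells, 5 of 7 for monocytes and granulocytes and 4 of 7 for fibroblasts. Among them were CD3D at 7.37 with doxycycline and 7.45 in the control, the granule protease gene ELANE at 7.94 and 8.27, and the collagen genes COL1A1 at 7.73 and 7.84 and COL1A2 at 7.91 and 7.86. The lysozyme gene LYZ also passed, with a difference of 0.28. Others were under it. The pan-T gene CD3E stood at 5.67 with doxycycline and 5.70 in the control, MS4A1 of B cells at 4.33 and 4.37, and the fibroblast gene DCN at 4.19 and 4.21. Whether the markers past the floor were expressed, and their part in the results below, was not tested.

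Most of the inducible inhibitors were higher with doxycycline, and the differences of the TSC and mTORC1 genes lay between -0.10 and 0.01. Of the 6 inhibitors, 5 were higher and 1 was lower. A difference of 1.5-fold was reached upwards by 2 and downwards by 0 of them, and 2-fold by 0. Among all genes compared, 50.3% were higher and 48.8% lower by any amount, 0.364% reached 1.5-fold upwards and 0.111% downwards, and 0.0445% reached 2-fold upwards and 0% downwards. The members were taken with this contrast in view, so nothing is read from their count. The median difference of the 6 inhibitors was 0.31, against -0.07 for MTOR and RPTOR, a gap of 0.38. With TSC1 and TSC2 counted among the core, the core median was -0.02 and the gap 0.33.

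**Figure D1:**
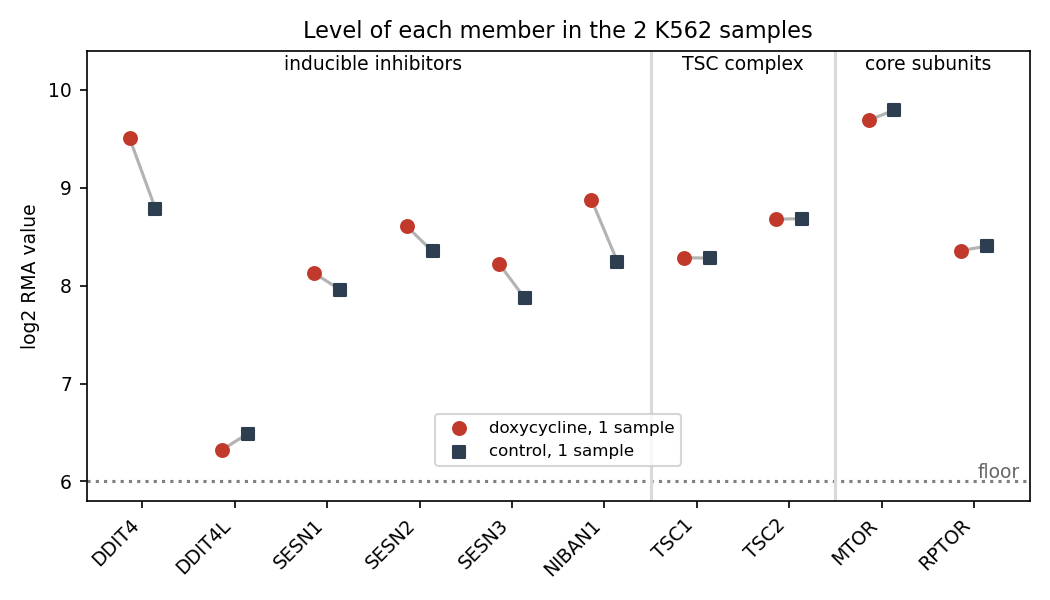
Log2 RMA value (y axis) of each of the 10 genes (x axis) in the doxycycline sample (circle) and the control sample (square), with the floor of 6 dotted; levels of different genes are not comparable. The circle lies above the square for DDIT4 (9.51 against 8.79), NIBAN1 (8.88 against 8.25) and the 3 sestrins, below it for DDIT4L, MTOR and RPTOR, and level with it for TSC1 and TSC2.

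DDIT4 stood at 9.51 with doxycycline and at 8.79 in the control. The difference of 0.72, or 1.65-fold higher, was the highest of the 10 genes and ranked 19 of 13471. Among the 500 genes closest to it in mean level, 0 had a higher difference, and the robust SD of those genes was 0.14. The genes ranked directly above it were SEL1L3 at 0.75, CAV1 (caveolin-1) at 0.74 and SLC24A2 at 0.73. Directly below it ranked CCNG2 at 0.72, a cyclin that opposes cell cycle progression and a known FOXO target, DLGAP1-AS1 at 0.72 and GSDME, a pore-forming gasdermin, at 0.70. These 6 share with DDIT4 the size of 1 difference between the same 2 arrays.

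DDIT4L, the paralogue of DDIT4, stood at 6.32 with doxycycline and at 6.49 in the control. The difference was -0.17, or 1.12-fold lower, close to the floor, where differences between genes of similar level were wider (robust SD 0.18). Of the 500 genes closest in level, 100 had a lower difference. The paralogues therefore lay on opposite sides of 0, but the DDIT4L difference was smaller than the robust SD of genes as dim as itself. Whether DDIT4L was expressed in either sample was not tested.

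NIBAN1 stood at 8.88 with doxycycline and at 8.25 in the control. The difference of 0.63, or 1.55-fold higher, ranked 34 of 13471, and 1 of the 500 genes closest in level had a higher one. DDIT4 and NIBAN1 were the only members past 1.5-fold as deposited. NIBAN1 lay just inside that size, and the next member, SESN3, lay outside it.

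All 3 sestrins were higher, with smaller differences than DDIT4 and NIBAN1. SESN3 stood at 8.22 with doxycycline and at 7.87 in the control, a difference of 0.35 or 1.28-fold. SESN2 stood at 8.61 with doxycycline and at 8.35 in the control, a difference of 0.26. SESN1 stood at 8.13 with doxycycline and at 7.96 in the control, a difference of 0.17. In the order SESN3, SESN2, SESN1, neighbours differed by less than the robust SD of genes of similar level, which was 0.14 for SESN3 and 0.15 for the other two. Of the 500 genes closest in level, 12 had a higher difference than SESN3, 30 than SESN2 and 78 than SESN1. At a size of 1.2-fold, which 6.04% of all genes passed upwards and 4.05% downwards, SESN3 lay inside and SESN2, at 1.196-fold, just outside.

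**Figure D2:**
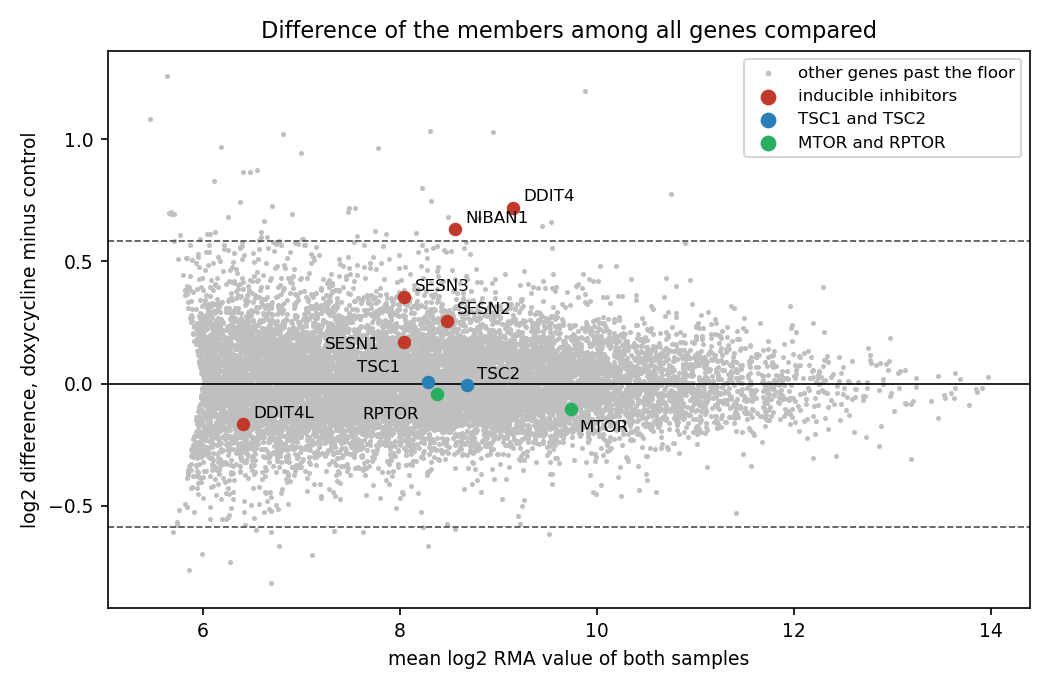
Log2 difference with doxycycline minus control (y axis) against the mean log2 RMA value of both samples (x axis) for 13471 genes, with the 10 members coloured by role and dashed lines at 1.5-fold. DDIT4 at 0.72 and NIBAN1 at 0.63 lie above the upper line, SESN3 at 0.35 lies towards the upper edge of the cloud, and TSC1, TSC2, RPTOR and MTOR lie inside it.

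The TSC genes, whose products restrain RHEB and through which DDIT4 acts, had almost the same level in both samples. TSC1 stood at 8.29 with doxycycline and 8.28 in the control, a difference of 0.00576. TSC2 stood at 8.68 in both, a difference of -0.00555. Their signs changed with the scaling of the arrays, to -0.00791 for TSC1 after quantile normalization and to 0.00437 for TSC2 after centring, so neither has a direction. RHEB itself, the GTPase that activates mTORC1, stood at 10.56 with doxycycline and 10.54 in the control. RHEBL1, its paralogue, differed by 0.22 close to the floor, at 6.30 with doxycycline and 6.08 in the control. The TSC subunit TBC1D7 was not analysed here.

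The mTORC1 genes were slightly lower. MTOR, the kinase, stood at 9.69 with doxycycline and 9.79 in the control, a difference of -0.10. RPTOR, the subunit that recruits substrates, stood at 8.36 with doxycycline and 8.40 in the control, a difference of -0.04. Both differences were smaller than the robust SD of genes of similar level, 0.12 for MTOR and 0.16 for RPTOR. Among 8 other subunits and assembly factors of mTORC1 and mTORC2, 2 were higher and 6 lower, with a median of -0.06 and 0 past 1.5-fold. Of all genes compared, 0.364% passed 1.5-fold upwards and 0.111% downwards. MLST8, a subunit of both complexes, differed by -0.18, at 8.91 with doxycycline and 9.09 in the control. TTI1, an assembly factor, differed by -0.11. The 2 that were higher belong to mTORC2. RICTOR, its defining subunit, stood at 10.30 with doxycycline and 10.04 in the control, a difference of 0.27, and PRR5L, an associated protein, differed by 0.29 close to the floor. The mTOR inhibitor DEPTOR was under the floor.

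The amino acid branch that the sestrins act on had 0 genes past 1.2-fold in the following lists. Of all genes compared, 6.04% passed that size upwards and 4.05% downwards, so with this few genes 0 is close to those shares. In GATOR1, which inactivates RRAGA and RRAGB, and KICSTOR, which anchors it to the lysosome, 1 of 6 genes was higher and 5 were lower, with a median of -0.06. KPTN differed by -0.17, NPRL3 by -0.11, DEPDC5 by -0.07 and KICS2 by 0.09. In GATOR2, the complex that sestrins bind, 2 of 5 were higher and the median was -0.02. WDR24 differed by 0.15, SEC13 by 0.07, SEH1L by -0.04 and MIOS by -0.02. Of 5 genes for other nutrient sensors, 3 were higher, with a median of 0.08. SAMTOR, the S-adenosylmethionine sensor, differed by 0.23, LARS1, the leucyl-tRNA synthetase, by 0.12, and the lysosomal arginine sensor SLC38A9 by 0.08. SAR1B, described as a leucine sensor, differed by -0.16.

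Among the Rag GTPases, their Ragulator scaffold and the folliculin complex, 3 of 10 genes were higher and 7 lower, with a median of -0.08. FLCN, which activates RRAGC and RRAGD, stood at 7.58 with doxycycline and 7.82 in the control, a difference of -0.25. Its partner FNIP1 stood at 9.58 with doxycycline and 9.33 in the control, a difference of 0.25, so these partners differed in opposite directions. RRAGB differed by -0.22 and LAMTOR2 by -0.22. Over the machinery lists together, from MTOR and TSC1 to the Rag genes, 14 of 40 genes were higher and 26 lower, the median was -0.04, 2 were at least 1.2-fold higher and 0 reached 1.5-fold. Over all genes compared, the median was 0.00177, with 50.3% higher by any amount, 6.04% by at least 1.2-fold and 0.364% by at least 1.5-fold.

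Inputs to the pathway were mixed. In AMPK, the energy sensor that phosphorylates TSC2 and RPTOR, and the complex of its activator LKB1, 3 of 9 genes were higher, with a median of -0.01. The subunit genes PRKAG1 and PRKAA1 differed by 0.21 and 0.18. PRKAG3 differed by -0.33 and PRKAG2 by -0.23, both close to the floor, with PRKAG3 at 6.32 with doxycycline and 6.65 in the control. In the PI3K and AKT arm, 7 of 11 genes were higher, with a median of 0.03 that was -0.04 when the probe sets of a gene were averaged. The insulin receptor substrate gene IRS1 differed by -0.25, at 5.82 with doxycycline and 6.07 in the control. IRS2 differed by -0.24, at 6.99 with doxycycline and 7.24 in the control. The AKT phosphatase gene PHLPP2 differed by 0.22 and AKT2 by -0.14.

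Transcripts of mTORC1 substrates and effectors were split evenly. Of 18 genes for substrates and effectors, 9 were higher and 9 lower, with a median of 0.00284 that was -0.02 when the probe sets of a gene were averaged. PDCD4, a translation inhibitor that S6 kinase marks for degradation, had the largest difference of these, 0.34, at 9.40 with doxycycline and 9.06 in the control. The transcription factor genes TFE3 and MITF, whose products mTORC1 keeps in the cytosol, differed by 0.22 and 0.19, and EIF4E, the cap-binding factor, by -0.15 close to the floor. Lysosomal and autophagy targets of the related factor TFEB had a median of 0.05, with 10 of 13 higher and 0 past 1.2-fold. Of all genes compared, 6.04% passed 1.2-fold upwards and 4.05% downwards. CTSB, a lysosomal protease, differed by 0.24, WIPI1, an autophagy gene, by 0.21, MAP1LC3B by 0.16 and LAMP1 by -0.22. These are transcript levels, and kinase activity was not measured.

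**Figure D3:**
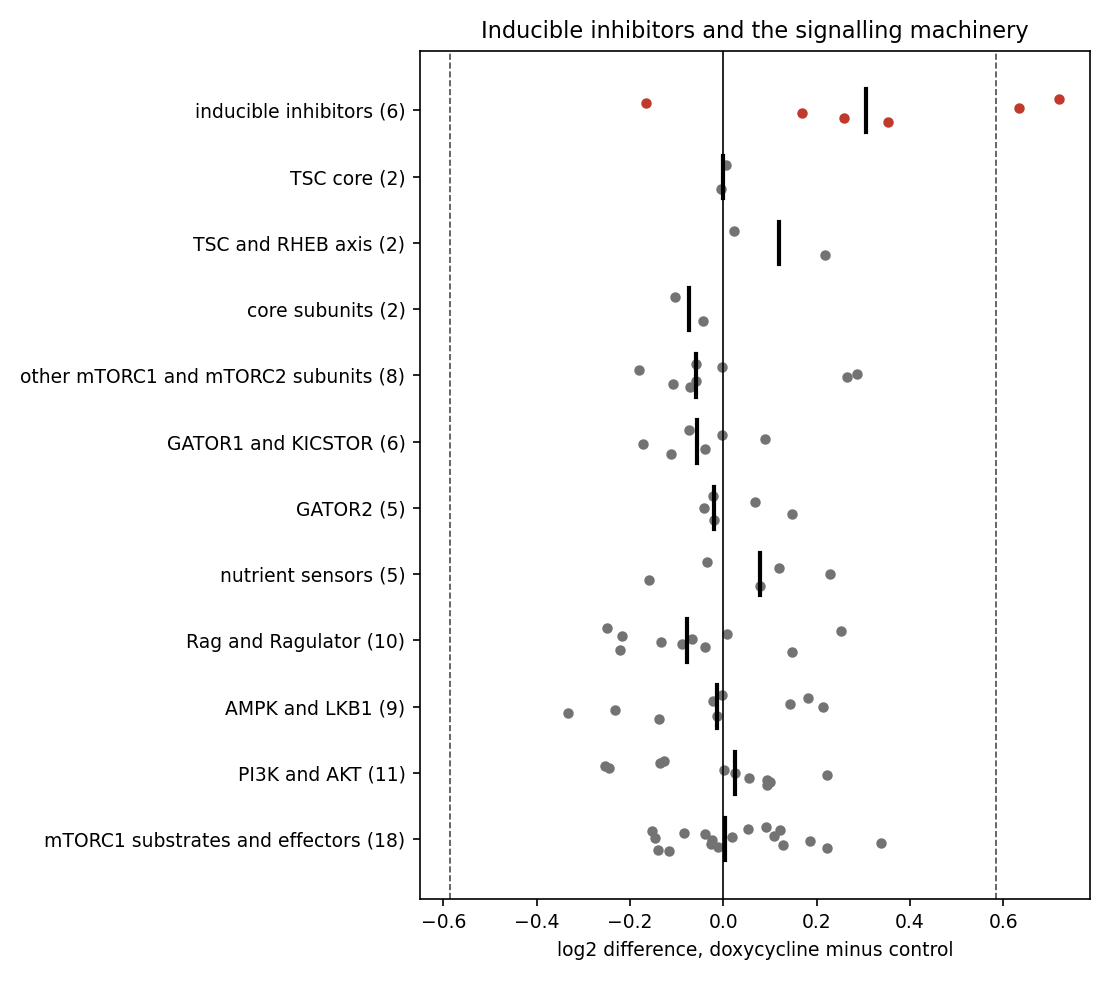
Log2 difference with doxycycline minus control (x axis) of each gene past the floor in the inducible inhibitors and 11 lists of the pathway's machinery (y axis, number of genes in brackets), with a bar at each median and dashed lines at 1.5-fold. The inhibitors have a median of 0.31 and 2 of 6 genes beyond the upper line. Each other list has a median between -0.08 and 0.12 and 0 genes beyond either line. Of all genes compared, 0.364% lie beyond the upper line and 0.111% beyond the lower, so 0 in lists of this size is close to those shares.

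The transcription factors known to induce DDIT4, the sestrins and NIBAN1 were followed through other targets of each. ATF4 targets had a median of 0.35, with 17 of 18 higher, 11 of them by at least 1.2-fold and 5 by at least 1.5-fold. Among all genes compared, 50.3% were higher, 6.04% by at least 1.2-fold and 0.364% by at least 1.5-fold. Such ATF4 targets were known to be high in these samples when the list was chosen. The largest difference in the list was that of PHGDH, which starts serine synthesis. It stood at 10.48 with doxycycline and 9.28 in the control, or 2.29-fold higher. Then came the cystine exchanger SLC7A11 at 1.03, the mitochondrial folate enzyme ALDH1L2 at 0.96, WARS1, the tryptophanyl-tRNA synthetase, at 0.78 and PSAT1, also of serine synthesis, at 0.65. DDIT4 at 0.72 lay between WARS1 and PSAT1, and NIBAN1 at 0.63 between PSAT1 and the stress transcription factor gene DDIT3 at 0.57. SESN2 at 0.26 lay close to TRIB3, an ATF4-induced pseudokinase, at 0.27. The choice to mention DDIT3 and TRIB3 was made with their values in view.

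Targets of p53 had a median of 0.21, with 14 of 16 higher, 6 at least 1.2-fold higher and 0 past 1.5-fold. Among all genes compared, 50.3% were higher, 6.04% by at least 1.2-fold and 0.364% by at least 1.5-fold, so 0 past 1.5-fold is close to its share. TNFRSF10B, a death receptor gene, differed by 0.41, TP53INP1 by 0.38, the stress cytokine gene GDF15 by 0.35 and the repair gene DDB2 by 0.35. No p53 response is read from these values. K562 has no functional p53, as stated above, and p53 activity was not measured. Why most genes of this list were higher was not tested. FOXO targets had a median of 0.09, with 11 of 14 higher, and 1, CCNG2, past 1.5-fold. KLF6 and BCL6, both transcription factors, differed by 0.36 each and CDKN1B, a cell cycle inhibitor, by 0.23.

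Glucocorticoid receptor targets had a median of 0.09, with 7 of 8 higher, against 50.3% of all genes compared. SGK1, a kinase, differed by 0.34, KLF9 by 0.30 and ZBTB16 by 0.14, whereas TSC22D3, a classical target, differed by -0.26, at 6.33 with doxycycline and 6.60 in the control. Hypoxia-induced genes had a median of -0.06, with 7 of 17 higher. VEGFA, the angiogenic factor, differed by 0.26, the histone demethylase gene KDM3A by 0.20, BNIP3 by -0.23 and the oxygen sensor gene EGLN3 by -0.23. NRF2 targets had a median of -0.03, with 4 of 9 higher. HMOX1, haem oxygenase, differed by 0.26, the thioredoxin gene TXN by -0.14, NQO1 by 0.11 and SRXN1 by -0.10.

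**Figure D4:**
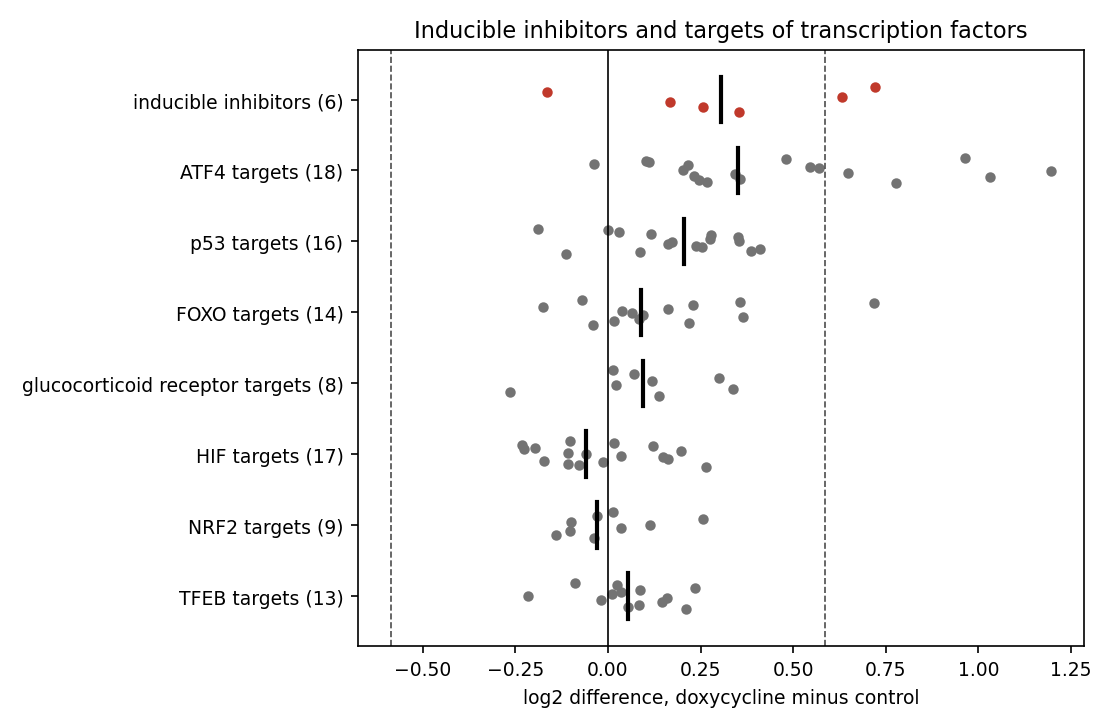
Log2 difference with doxycycline minus control (x axis) of each gene past the floor in the inducible inhibitors and in 7 lists of transcription factor targets (y axis, number of genes in brackets), with a bar at each median and dashed lines at 1.5-fold. The median is 0.31 for the inhibitors, 0.35 for ATF4 targets, 0.21 for p53 targets and -0.06 for hypoxia-induced genes.

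Genes next to the members on their chromosomes were compared, taking for each member the nearest gene past the floor on either side. Of these 20 neighbours, 1 differed by 1.2-fold or more, CHMP6 beside RPTOR at -0.28, and their median was -0.01. That size was passed by 6.04% of all genes upwards and 4.05% downwards, so 1 of 20 is close to those shares. DDIT4 lies between ANAPC16, at 0.25, and DNAJB12, at 0.11. NIBAN1 lies between EDEM3, at -0.02, and TRMT1L, at 0.12. SESN3 lies between ENDOD1, at 0.08, and FAM76B, at 0.25. DDIT4, NIBAN1 and SESN3 each had a higher difference than both of their neighbours. They are the members with the highest differences, so this was likely from the start, and whether a wider region differed was not tested. The neighbours were taken by position, outside the rule for named genes.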

How the data were processed

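Total RNA of 2 K562 cultures was hybridised to 1 Affymetrix array each after a whole-transcript sense target protocol, per the labels' protocols. The deposited values are on a log2 scale; per the submitters' processing notes, RMA in Affymetrix Expression Console 1.1.1 produced them. RMA quantile-normalizes arrays, so a shift shared by all genes would not be seen, and it shrinks differences of dim probe sets. The base of 2 is inferred from RMA and from the range of values, 1.61 to 14.6. The series' design text names an HG-U133 Plus array, but the annotation that matched these probe sets is that of a whole-transcript array.

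Of 33297 probe sets, 19460 had 1 gene symbol, 1754 several and 12083 none here. Symbols were updated by Entrez ID to RefSeq (GRCh38.p14), where 19429 matched. A gene took its probe set with the highest mean, and genes whose higher value was under 6 were left out, leaving 13471 of 18417.

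The members, the 19 pathway lists and the 5 marker lists were chosen with earlier results of these data known. Genes named were all members, BMI1, up to 4 genes of each list with the largest absolute difference and any past 1.5-fold, and the 3 genes ranked on each side of DDIT4. Markers and genes under the floor are named as examples. With 1 sample per group there was no test, and the number of arrays limits the precision. Calls by fold were tried on simulated data with planted changes, which checks the computation and says nothing of false calls between single arrays. The alternatives tried were averaging a gene's probe sets or taking their median, centring, quantile normalization, a loess trend (span 0.3), no floor or floors of 5, 7 and 8, and other sizes. Medians without DDIT4 or DDIT4L were added after seeing the data. Python 3.11.15, numpy 2.4.6, pandas 2.3.3, statsmodels 0.14.6 and matplotlib 3.10.9 were used.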

Additional observations from a re-analysis of the deposited data

How the results depend on the processing

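No paired analysis was possible because each group held 1 sample. Over the settings of scaling, probe set rule and floor, DDIT4 differed by 0.71 to 0.73, NIBAN1 by 0.62 to 0.64, SESN3 by 0.34 to 0.36, SESN2 by 0.25 to 0.27 and SESN1 by 0.16 to 0.18. DDIT4L (-0.17 to -0.15) had no value with floors of 7 or 8. The median of the inhibitors lay between 0.29 and 0.35 and their gap to MTOR and RPTOR between 0.37 and 0.43, and with TSC1 and TSC2 among the core it was 0.33. Without DDIT4 the median was 0.26, and without DDIT4L it was 0.35. The number of members at least 1.5-fold higher was 2 at each floor and scaling tried and 0 at a size of 2-fold. Counts over all genes, 49 higher and 15 lower, followed the floor and the size. They were 77 higher and 66 lower with no floor, 32 lower with a floor of 5, 26 and 9 with a floor of 7, 16 and 4 with a floor of 8, 814 and 545 at 1.2-fold and 6 and 0 at 2-fold. The median of ATF4 targets was 0.51 with a floor of 8, which leaves out its dimmer genes. Each member had 1 probe set, so the probe set rules and floors could not change its value, only leave it out. Only the scalings could move a member, and many of the following values were fixed in advance. Of 287 values under alternatives, 274 stayed within the robust SD between genes or within 1.5 times the count, and 13 moved further. The differences past 1.5-fold, those of DDIT4 and NIBAN1 alone, did not change sign. TSC1, TSC2 and the medians of 3 lists (PI3K and AKT, substrates and effectors, AMPK and LKB1) changed sign under at least 1 setting, with values within 0.07 of 0.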

Other observations

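Of the 13471 genes compared, 115 (0.854%) had exactly the same deposited value in both samples, as did 735 of all 33297 probe sets. The 10 members were not among them (0 of 10), but their chromosome neighbours SPACA9, beside TSC1, at 6.44 in both, and NTHL1, beside TSC2, at 8.01 in both, were. How these identical values arose was not tested.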
